A study of Homo sapiens with 12 samples.

Results

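The HLA class I chains and their shared partner B2M were followed in K562, a chronic myeloid leukaemia cell line, with and without tumour necrosis factor alpha (TNF). The set was given as 5 symbols, namely HLA-B, HLA-C, HLA-E, HLA-F and B2M, and each was matched to the gene names of the deposited table. Of these, 4 were found, on 3 of its 38272 loci, because HLA-B and HLA-C carry a common locus, and HLA-F was not analysed here. RNA was sequenced in 12 libraries, with 3 biological replicates, per the labels, in each of 4 groups. The TNFSG group received the siRNA Si623 and the GapmeR Gap01, a chimeric antisense oligonucleotide through which RNase H cuts the matching RNA, both against a long non-coding RNA (lncRNA), followed by TNF at 20 ng/mL for 6 hours. The TNF group received the control transfection, SiCt and GapCt, and then the same dose of TNF for the same time. The SG group received Si623 and Gap01 without TNF, and the control group received SiCt and GapCt without TNF. Every library therefore came from transfected cells of this line, and the labels name no untransfected group.

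Class I molecules show peptides from inside the cell to CD8 T cells and are read by natural killer cells. Each consists of a polymorphic heavy chain and the invariant light chain beta-2 microglobulin, the product of B2M, without which heavy chains do not reach the surface stably. HLA-B and HLA-C are classical heavy chains, and HLA-C is a main ligand of killer cell immunoglobulin-like receptors. HLA-E is a non-classical chain that displays leader peptides of other class I chains to the receptor CD94/NKG2A. K562 is a standard target of natural killer cells, known for carrying very little class I at its surface. TNF activates NF-kB, and class I promoters are described as holding an NF-kB element, an interferon-stimulated response element and the SXY module bound by RFX, CREB/ATF and NF-Y factors together with the coactivator NLRC5.

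In GENCODE release 29 (hg38), HLA-E spans 30489467 to 30494205 on the plus strand of chromosome 6. HLA-B spans 31269491 to 31357188 and HLA-C spans 31268749 to 31272130, both on the minus strand of chromosome 6. Of 10 annotated HLA-B transcripts, 1 reaches into HLA-C, and the deposited table gives both genes 1 joint value, so their levels cannot be told apart. B2M lies on chromosome 15 from 44711487 to 44718877 on the plus strand. Reads were 50 bases long, and of the 50-base windows of a B2M transcript 0 of 1656 recur in a transcript of another gene. For HLA-E, 5.13% of windows recur elsewhere, most of them in HLA-G. For HLA-B and HLA-C, 1.47% and 5.65% of windows recur outside their joint locus. How the authors' alignment placed such reads, or reads of alleles of K562 that differ from the reference genome, was not tested.

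Because the question is how TNF moves these genes, the promoters are shown from 250 bases before to 50 bases after the start, from RefSeq (GRCh38.p14), 5′ to 3′ on the gene's strand. Entries were matched by symbol for HLA-B, HLA-C and B2M. Capitals mark matches, on either strand, to the NF-kB consensus, to GAAA, any 2 bases and GAAA (the core of an interferon-stimulated response element), to TGACG (the CREB/ATF core) and to CCAAT (the NF-Y box), which reads ATTGG on the other strand.
HLA-B chr6:31357130-31357429 (-): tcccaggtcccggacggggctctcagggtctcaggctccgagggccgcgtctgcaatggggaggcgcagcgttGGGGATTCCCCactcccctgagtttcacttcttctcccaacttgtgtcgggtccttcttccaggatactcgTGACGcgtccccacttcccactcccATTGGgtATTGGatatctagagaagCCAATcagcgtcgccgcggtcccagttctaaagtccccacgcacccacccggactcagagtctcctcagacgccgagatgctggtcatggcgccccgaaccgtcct
HLA-C chr6:31272043-31272342 (-): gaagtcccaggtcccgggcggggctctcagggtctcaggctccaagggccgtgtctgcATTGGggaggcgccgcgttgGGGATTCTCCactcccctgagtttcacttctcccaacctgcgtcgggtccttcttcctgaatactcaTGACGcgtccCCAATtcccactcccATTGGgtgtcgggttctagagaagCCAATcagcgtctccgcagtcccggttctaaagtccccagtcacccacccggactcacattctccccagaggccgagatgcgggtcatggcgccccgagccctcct
B2M chr15:44711267-44711566 (+): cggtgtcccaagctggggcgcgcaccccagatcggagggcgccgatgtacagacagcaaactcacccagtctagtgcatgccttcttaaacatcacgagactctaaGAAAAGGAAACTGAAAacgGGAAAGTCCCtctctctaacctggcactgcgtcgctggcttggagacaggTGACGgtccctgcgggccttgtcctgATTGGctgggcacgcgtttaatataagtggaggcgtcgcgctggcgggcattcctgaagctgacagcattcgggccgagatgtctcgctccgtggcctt
The HLA-B promoter holds the NF-kB consensus between bases -177 and -167 from the start, where 4 matches on both strands overlap, and the HLA-C promoter holds it between -172 and -163. In the B2M promoter it lies on the minus strand between -125 and -116, directly after a pair of matches to the interferon core that overlap each other. The HLA-B and HLA-C windows hold 0 matches to the interferon core as spelled here. TGACG and at least 1 CCAAT follow in each of the 3 promoters. Among 35116 promoters of the same length, 11.3% hold the NF-kB consensus, 3.57% the interferon core, 24.6% TGACG and 34.6% CCAAT. The NF-kB consensus, TGACG and CCAAT occur together in 334 of them (0.951%). These matches describe the letters only, and binding was not measured.

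The values are FPKM, fragments per kilobase of transcript and scaled to the mapped fragments of a library, as Cufflinks gives them. Total read numbers are not in the table, so depth is unknown in absolute terms. From the steps between low values, relative depth lay between 0.788 (control replicate 3) and 1.205 (TNFSG replicate 1) of control replicate 1. Of the K562 markers, GATA1, an erythroid transcription factor, lay between 102.7 and 136.5 FPKM over all libraries. The fetal globin HBG1 averaged 0.80 to 2.56 FPKM, while the joint locus of the globins HBE1 and HBG2 averaged 2007 to 2397 FPKM. All 10 symbols of that list were in the table, summing to 2047 to 5224 FPKM. The 5 epithelial markers were in it too and summed to 336 to 758 FPKM. The series title places the targeted lncRNA by a name read here as PTTG1, and the neighbouring locus MIR146A lay at 7.77, 4.51 and 4.03 FPKM in TNFSG, 28.1, 25.6 and 21.2 FPKM in TNF, 0, 0.057 and 0.063 FPKM in SG, and 0.36, 0.569 and 0.159 FPKM in control. Whether that locus is the target rests on this reading. The 5 TNF response genes ICAM1, NFKBIA, TNFAIP3, CXCL8 and BIRC3 rose in TNF against control and in TNFSG against SG.

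The libraries numbered 1 stood apart in this gene set. HLA-E and the HLA-B/HLA-C locus were highest in library 1 in all 4 groups, a pattern shown by 1681 of the 32866 tested loci (5.11%), and B2M did not share it. HLA-E in library 1 was 1.32 times the mean of libraries 2 and 3 in TNFSG, 2.04 times in TNF, 1.42 times in SG and 2.45 times in control. For HLA-B/HLA-C these ratios were 1.32, 1.51, 1.19 and 1.28 in the same order. Of the 9 loci of K562 markers, 4 were lowest in library 1 in every group. HBZ, embryonic zeta globin, lay at 268, 473 and 791 FPKM in TNFSG, 308, 819 and 1187 FPKM in TNF, 299, 483 and 758 FPKM in SG, and 295, 842 and 1160 FPKM in control. Of the T and B cell markers, 4 of 7 symbols were in the table, and CD3D and CD3G were highest in library 1 in every group. CD3D lay at 40.2, 26.3 and 24.9 FPKM in TNFSG, 44.7, 17.7 and 13.3 FPKM in TNF, 32.2, 18.5 and 24.5 FPKM in SG, and 33.9, 14.2 and 10.9 FPKM in control. CD3E, the partner chain of CD3D in T cells, stayed at 2.11 FPKM or below in every library. The summed T and B cell markers ranged from 36.5 to 53.0 FPKM in TNFSG, 18.3 to 53.5 FPKM in TNF, 33.4 to 43.5 FPKM in SG and 18.4 to 44.1 FPKM in control, with none at 0 throughout. LYZ among 3 measured monocyte markers, COL1A1 among 3 fibroblast markers and KRT18 among 5 epithelial markers were also highest in library 1 in every group. The other loci of these lists were neither highest nor lowest in library 1 in every group. ITGAX, a monocyte marker, lay at 87.4, 442 and 240 FPKM in TNFSG. The fibroblast marker DCN lay at 14.3, 22.95 and 54.5 FPKM in control, and the epithelial marker KRT8 at 73.0, 77.55 and 312 FPKM in TNFSG. The part of these differences in the class I values was not tested, and results are given below with and without the libraries numbered 1.

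**Figure D1:**
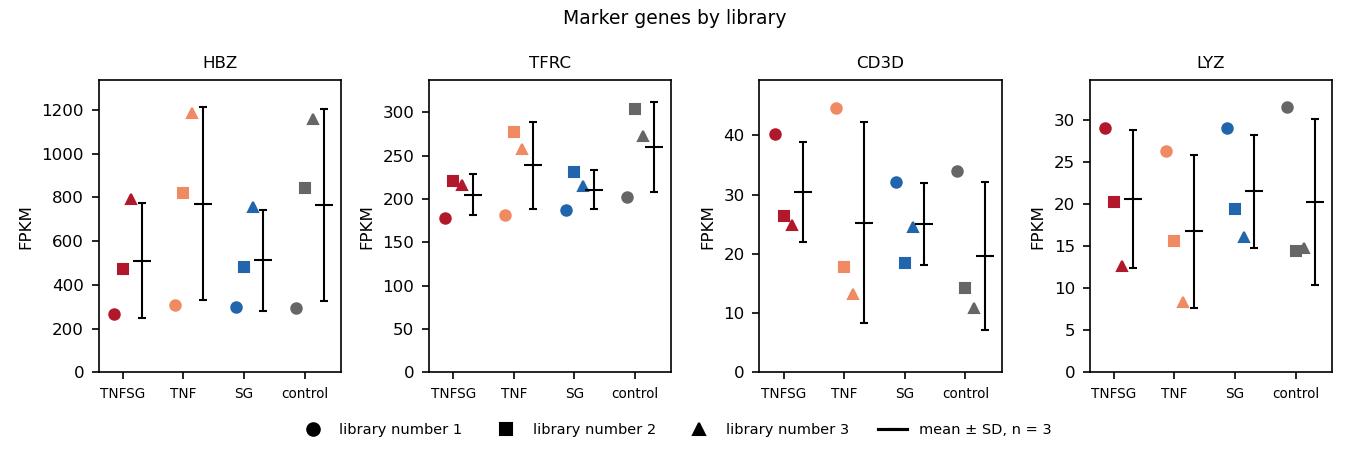
FPKM of the K562 markers HBZ and TFRC, the T cell marker CD3D and the monocyte marker LYZ in TNFSG, TNF, SG and control, with 1 point per library, its shape giving the library number, and the mean ± SD (n = 3) beside the points. In every group library 1 is lowest for HBZ and TFRC and highest for CD3D and LYZ, as CD3D shows in TNF with 44.7 FPKM in library 1 against 17.7 and 13.3 FPKM. Library 1 was lowest in every group for 4 of 9 K562 marker loci. It was highest in every group for 2 of 4 T and B cell loci and 1 of 3 monocyte loci.

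B2M rose with TNF in both transfections. It lay at 347, 377 and 363 FPKM in TNFSG, 382, 378 and 357 FPKM in TNF, 251, 270 and 261 FPKM in SG, and 287, 296 and 253 FPKM in control. All 6 libraries with TNF lay above all 6 without it, and the spread within each group was small. Of all tested loci, 7.59% had TNF wholly above control and 8.13% had TNFSG wholly above SG. The share with all 6 above all 6 is not given here. The mean was 372 ± 13.5 FPKM in TNF and 279 ± 22.4 FPKM in control (SD, n = 3 each), a ratio of 1.34. On the log2(FPKM + 1) scale, which is used for every difference below, the rise was 0.42 ± 0.07 (SE) with a limma adjusted p of 0.0249 and a 95% interval of 0.25 to 0.59. In TNFSG the mean was 362 ± 15.2 FPKM, against 261 ± 9.33 FPKM in SG (SD, n = 3 each), a ratio of 1.39. That rise was 0.47 ± 0.07 with a limma adjusted p of 0.0122 and an interval of 0.31 to 0.64. Of the 9 loci of K562 markers, NFE2, KLF1 and EPOR also differed between the libraries with and without TNF. NFE2, an erythroid transcription factor, averaged 44.8 ± 7.71 FPKM in TNFSG, 50.0 ± 6.87 FPKM in TNF, 100.1 ± 7.13 FPKM in SG and 99.1 ± 3.6 FPKM in control (SD, n = 3 each). KLF1 averaged 54.5 ± 9.44 FPKM in TNFSG, 63.2 ± 8.41 FPKM in TNF, 87.4 ± 1.26 FPKM in SG and 93.9 ± 13.4 FPKM in control. EPOR averaged 4.13 ± 0.81 FPKM in TNFSG, 4.13 ± 0.87 FPKM in TNF, 7.75 ± 0.26 FPKM in SG and 6.39 ± 1.15 FPKM in control. NFE2, KLF1 and EPOR were each lower in all 6 libraries with TNF than in any of the 6 without. The other loci of that list overlapped between the libraries with and without TNF. HBZ averaged 771 FPKM in TNF and 765 FPKM in control, and TAL1 averaged 40.4 and 41.3 FPKM. GATA1 averaged 106 FPKM in TNFSG, 119 FPKM in TNF, 125 FPKM in SG and 131 FPKM in control. No fitted difference is given for these markers. Of 5 fibroblast markers 3 were in the table, and their sum ranged from 65.2 to 444 FPKM in TNFSG, 55.1 to 1178 FPKM in TNF, 21.4 to 45.3 FPKM in SG and 23.9 to 56.3 FPKM in control. Their highest values came from COL1A2, which reached 406 FPKM in TNFSG replicate 2 and 1098 FPKM in TNF replicate 1, against 3.67 and 2.60 FPKM in the lowest libraries of those groups. In SG and control COL1A2 lay at or below 6.39 FPKM and was listed at 0 in control replicate 2. The part of these markers in the class I values was not tested. In bulk RNA, fewer cells that express a gene and less RNA per cell cannot be told apart.

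The size of the B2M rise was stable and its call was not. Over the 6 fits that left out a library of either group, the difference lay between 0.35 and 0.46 in TNF against control and between 0.44 and 0.50 in TNFSG against SG. In TNF against control the call was lost without TNF replicate 1, 2 or 3 or without control replicate 3, with limma adjusted p values of 0.0870, 0.0849, 0.0604 and 0.0833. In TNFSG against SG it was lost without SG replicate 1 or 3 or without TNFSG replicate 2 or 3, with limma adjusted p values of 0.0559, 0.0507, 0.0628 and 0.0547. Without the 4 libraries numbered 1 the differences were 0.42 (limma adjusted p 0.179) and 0.48 (limma adjusted p 0.149).

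B2M did not pass the threshold for the targeted transfection. The difference was -0.09 in SG against control, with a 95% interval of -0.26 to 0.07 and a limma adjusted p of 0.736. With median-ratio scaling it was -0.18 (interval -0.35 to -0.01, unadjusted p 0.0400, limma adjusted p 0.502), and without control replicate 3 it was -0.16 (limma adjusted p 0.587). It was -0.04 in TNFSG against TNF, with an interval of -0.21 to 0.13 and a limma adjusted p of 0.924, and it was -0.11 with median-ratio scaling and 0.01 without the libraries numbered 1. The groups overlapped in both comparisons.

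**Figure D2:**
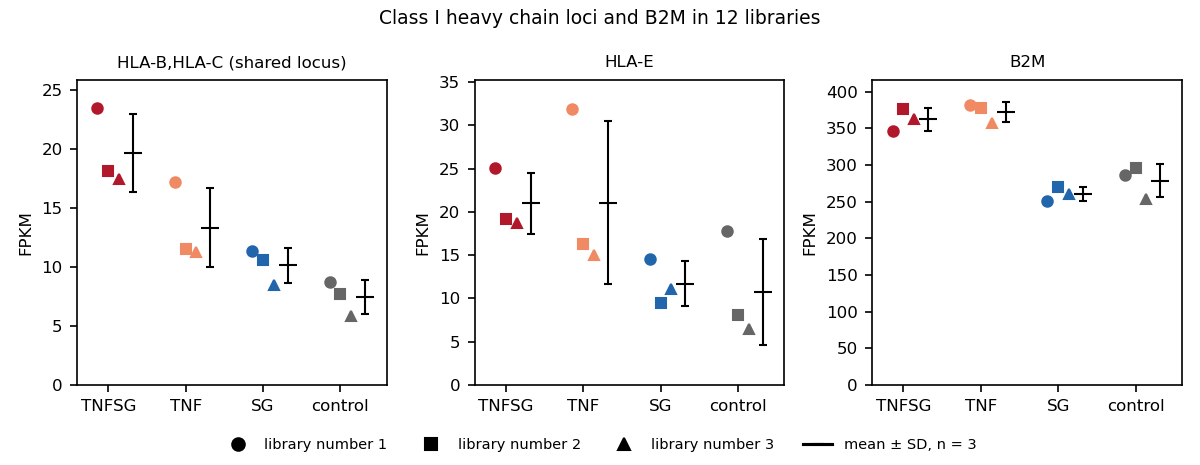
FPKM of the joint HLA-B/HLA-C locus, HLA-E and B2M in the 4 groups, with 1 point per library, its shape giving the library number, and the mean ± SD (n = 3) beside the points. B2M separates the libraries with TNF (347 to 382 FPKM) from those without it (251 to 296 FPKM), while library 1 lies above libraries 2 and 3 in every group for HLA-B/HLA-C and HLA-E.

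The HLA-B/HLA-C locus was higher with TNF in every library than in its own transfection control, but the differences did not pass the adjusted threshold. It lay at 23.5, 18.1 and 17.4 FPKM in TNFSG, 17.2, 11.5 and 11.3 FPKM in TNF, 11.4, 10.6 and 8.48 FPKM in SG, and 8.70, 7.72 and 5.86 FPKM in control. The groups did not overlap in TNF against control, in TNFSG against SG or in TNFSG against TNF, and overlapped in SG against control. Of all tested loci, 7.59%, 8.13% and 10.0% lay wholly higher in the first group of the first 3 comparisons. The mean was 13.3 ± 3.34 FPKM in TNF and 7.43 ± 1.44 FPKM in control (SD, n = 3 each), a ratio of 1.79 and a difference of 0.75 ± 0.20 with a limma adjusted p of 0.134 (unadjusted 0.00387). The mean was 19.7 ± 3.32 FPKM in TNFSG and 10.1 ± 1.49 FPKM in SG, a ratio of 1.94 and a difference of 0.89 ± 0.20 with a limma adjusted p of 0.0684 (unadjusted 0.00135). The second of these passed with a filter at 5 FPKM, which tests fewer loci (limma adjusted p 0.0422), and without TNF replicate 1 (0.0366). The calls of both in a fit with the library number as a term are given in the closing section. Without the libraries numbered 1 the differences were 0.68 (limma adjusted p 0.195) and 0.84 (0.138).

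The same locus was the only one of the set whose libraries with TNF lay apart by transfection. Over all tested loci, 10.0% had TNFSG wholly above TNF. TNFSG exceeded TNF by 0.54 ± 0.20 with a 95% interval of 0.10 to 0.99, a limma adjusted p of 0.444 (unadjusted 0.0218) and a ratio of 1.48. SG exceeded control by 0.41 ± 0.20 with an interval of -0.04 to 0.85, a limma adjusted p of 0.544 and a ratio of 1.37. Without the libraries numbered 1 these differences were 0.60 and 0.44, with limma adjusted p values of 0.325 and 0.386. Over all tested loci the median difference was 0.08 in each of these comparisons, and quantile normalization moved it to -0.03. After quantile normalization the locus differed by 0.47 in TNFSG against TNF and by 0.26 in SG against control.

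HLA-E varied more between libraries than the other loci in TNF, SG and control. It lay at 25.1, 19.2 and 18.7 FPKM in TNFSG, 31.9, 16.3 and 15.0 FPKM in TNF, 14.5, 9.51 and 11 FPKM in SG, and 17.8, 8.06 and 6.45 FPKM in control. TNFSG did not overlap SG, as for 8.13% of all tested loci with TNFSG higher, and TNF overlapped control through control replicate 1. The mean was 21.0 ± 9.40 FPKM in TNF and 10.8 ± 6.14 FPKM in control (SD, n = 3 each), a ratio of 1.95 and a difference of 0.95 ± 0.37 with a limma adjusted p of 0.360. The mean was 21.0 ± 3.53 FPKM in TNFSG and 11.7 ± 2.58 FPKM in SG, a ratio of 1.80 and a difference of 0.80 ± 0.37 with a limma adjusted p of 0.457. Neither passed the threshold, and their 95% intervals were 0.12 to 1.77 and -0.03 to 1.63. In TNF against control the difference was 0.62 without TNF replicate 1 and 1.34 without control replicate 1 (limma adjusted p 0.631 and 0.104).

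Without the libraries numbered 1 the HLA-E difference was 1.02 ± 0.13 in TNF against control (limma adjusted p 0.0496) and 0.83 ± 0.13 in TNFSG against SG (0.0935). That setting was chosen after the values were seen and leaves 2 libraries a group. For the targeted transfection HLA-E differed by 0.21 in SG against control (95% interval -0.62 to 1.04, limma adjusted p 0.902) and by 0.06 in TNFSG against TNF (-0.76 to 0.89, limma adjusted p 0.982). The sign of both changed when particular libraries were left out.

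**Figure D3:**
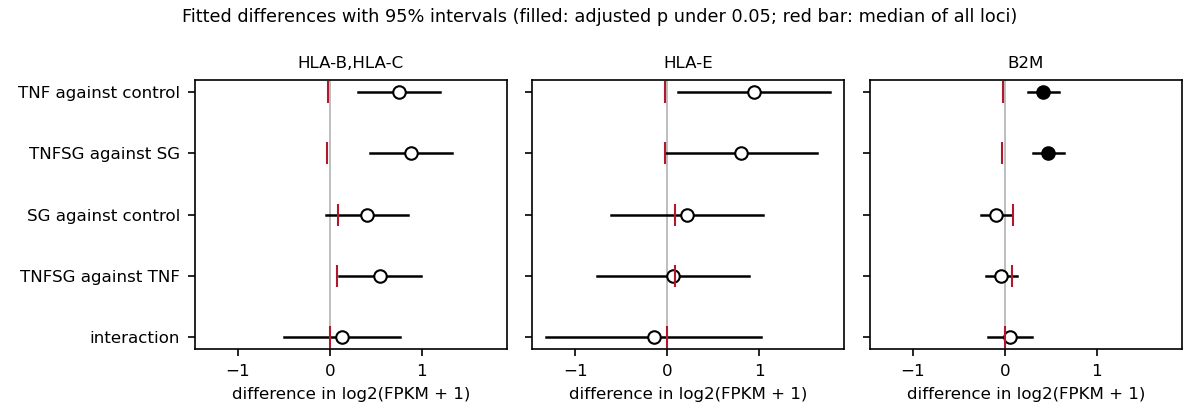
Fitted differences in log2(FPKM + 1) with 95% intervals for the joint HLA-B/HLA-C locus, HLA-E and B2M in 4 comparisons and their interaction. Filled points mark a limma adjusted p under 0.05 and red bars the median of all tested loci. B2M has the smallest differences with TNF (0.42 and 0.47) and the narrowest intervals, and it is the only filled one.

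By the count of calls, 1 of the 3 loci rose in TNF against control and 0 fell, where 1.18% of all 32866 tested loci rose and 0.277% fell. In TNFSG against SG 1 of 3 rose and 0 fell, where 1.37% of all tested loci rose and 0.277% fell. The targeted transfection called 0 of 3 loci in SG against control, where 0.17% of all loci passed in either direction, and 0 of 3 in TNFSG against TNF, where 0.128% did. At an unadjusted p under 0.05 these 2 comparisons held 0 and 1 of the 3 loci, where 9.86% and 9.11% of all tested loci lay there. For TNF against control and TNFSG against SG that share of all loci was 11.2% and 11.4%. Groups without overlap and with the higher values in the group named first were found for 2 of 3 loci in TNF against control (7.59% of all loci), 3 of 3 in TNFSG against SG (8.13%), 0 of 3 in SG against control (10.3%) and 1 of 3 in TNFSG against TNF (10.0%). The median difference of the 3 loci was 0.75 in TNF against control and 0.80 in TNFSG against SG, beside -0.02 and -0.03 over all tested loci. It was 0.21 in SG against control and 0.06 in TNFSG against TNF, beside 0.08 over all tested loci in each. All 3 loci passed the filter on low values, with at least 5.86 FPKM in every library.

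Whether the TNF response differed between the transfections was tested as the interaction, which passed for 0.00913% of all loci and for 0 of the 3 here. Its value was 0.14 for HLA-B/HLA-C (95% interval -0.50 to 0.77), -0.15 for HLA-E (-1.32 to 1.02) and 0.05 for B2M (-0.18 to 0.29), each with a limma adjusted p of 1 and an unadjusted p of at least 0.625. The interval of HLA-E leaves room for a difference in response of either sign larger than its whole TNF response.

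In order of level, B2M was far above the HLA-E and HLA-B/HLA-C loci in every group, and FPKM corrects for length. HLA-G, a heavy chain outside this set, reached 459 FPKM in TNFSG replicate 1, where B2M lay at 347 FPKM. The B2M mean lay above that of 98.2% to 98.8% of tested loci, that of HLA-E above 72.0% to 81.4% and that of HLA-B/HLA-C above 66.7% to 79.8%. HLA-E and HLA-B/HLA-C averaged 21.0 ± 3.53 and 19.7 ± 3.32 FPKM in TNFSG, and in each of the 4 groups the libraries of these loci overlapped. Across groups, B2M ranked TNF, TNFSG, control and SG from high to low, with overlap within each neighbouring pair of like TNF treatment. HLA-B/HLA-C ranked TNFSG, TNF, SG and control, with overlap between TNF and SG and between SG and control. HLA-E ranked TNF, TNFSG, SG and control, and the TNF libraries overlapped those of TNFSG, while SG overlapped control.

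Heavy chain RNA was summed over the HLA-B/HLA-C locus and HLA-E and set against B2M. The sum was 48.5, 37.3 and 36.2 FPKM in TNFSG, 49.0, 27.8 and 26.2 FPKM in TNF, 25.9, 20.1 and 19.5 FPKM in SG, and 26.5, 15.8 and 12.3 FPKM in control. TNFSG lay wholly above SG, with means of 40.7 ± 6.85 and 21.8 ± 3.52 FPKM (n = 3 each, two-sided exact permutation p 0.1). TNF overlapped control, with means of 34.3 ± 12.7 and 18.2 ± 7.40 FPKM (n = 3 each, exact permutation p 0.2). The smallest p that 3 libraries against 3 can give is 0.1, so no such comparison can pass 0.05. The difference between TNF and control was 16.2 FPKM, and it was 8.80 FPKM without TNF replicate 1. TNFSG exceeded TNF by 6.32 FPKM (exact permutation p 0.6), and the difference was 13.7 FPKM without TNF replicate 1 and 2.26 FPKM without TNF replicate 3. SG exceeded control by 3.64 FPKM (exact permutation p 0.5), and the difference was 0.70 FPKM without control replicate 3 and 7.79 FPKM without control replicate 1.

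Per 100 FPKM of B2M, the heavy chain sum was 14, 9.89 and 9.97 FPKM in TNFSG, 12.8, 7.34 and 7.35 FPKM in TNF, 10.3, 7.45 and 7.48 FPKM in SG, and 9.23, 5.34 and 4.86 FPKM in control. Library 1 was highest in every group, and all 4 comparisons overlapped. The mean ratio was 1.42 times as high in TNF as in control and 1.34 times as high in TNFSG as in SG (n = 3 each, exact permutation p 0.3 in both). It was 1.30 times as high in SG as in control and 1.23 times as high in TNFSG as in TNF (exact permutation p 0.3 and 0.5). HLA-E made up 51.6%, 51.5% and 51.8% of the sum in TNFSG, 65.0%, 58.6% and 57.1% in TNF, 56.2%, 47.3% and 56.5% in SG, and 67.2%, 51.1% and 52.4% in control. Its share was thus lower in all TNFSG libraries than in all TNF libraries, and SG overlapped control. The share was not tested. HLA-E itself averaged 21.0 FPKM in both TNFSG and TNF, while HLA-B/HLA-C averaged 19.7 FPKM in TNFSG and 13.3 FPKM in TNF.

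**Figure D4:**
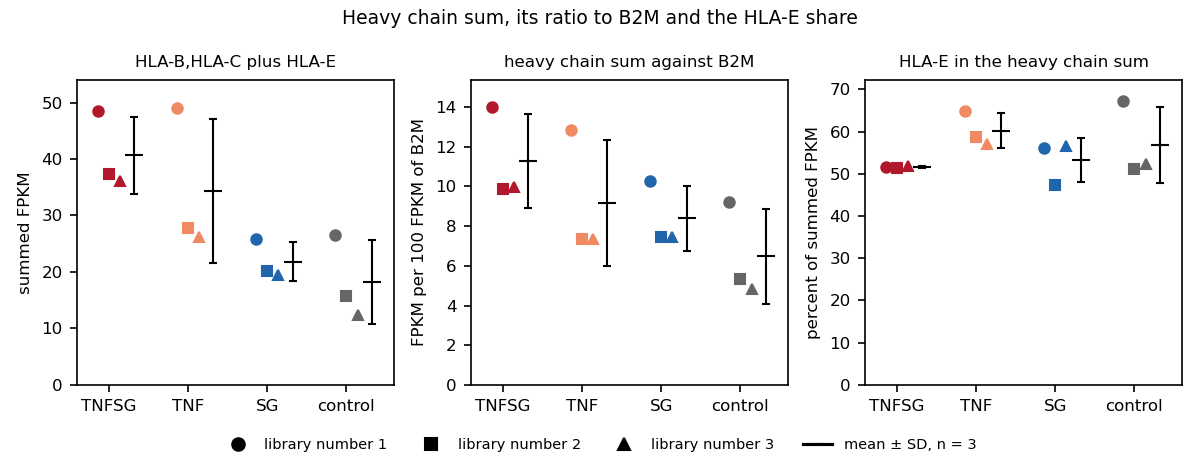
Summed FPKM of the HLA-B/HLA-C and HLA-E loci, that sum per 100 FPKM of B2M, and the percent of the sum from HLA-E, in TNFSG, TNF, SG and control, with 1 point per library and the mean ± SD (n = 3). The ratio to B2M lies between 9.89 and 14 in TNFSG and between 4.86 and 9.23 in control, with library 1 highest in each group, and the HLA-E share in TNFSG lies within 51.5% and 51.8%.

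The machinery that makes and loads class I peptides was followed as a list of 21 genes, all tested. Of these, 5 rose and 0 fell in each TNF comparison, where 1.18% of all tested loci rose in TNF against control and 1.37% in TNFSG against SG. The same 5 loci passed in both, namely TAP1, the tapasin locus, TAPBPL, ERAP2 and PSME1. The list's median difference was 0.15 in each comparison, beside -0.02 and -0.03 over all tested loci.

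TAP1, a chain of the transporter that carries peptides into the endoplasmic reticulum, lay at 16.4, 11.3 and 11.4 FPKM in TNFSG, 13.8, 9.11 and 9.26 FPKM in TNF, 1.16, 1.46 and 1.02 FPKM in SG, and 1.44, 0.791 and 0.769 FPKM in control. All libraries with TNF lay far above all without it. The rise was 2.55 ± 0.22 in TNF against control (limma adjusted p 0.000259) and 2.65 ± 0.22 in TNFSG against SG (0.000196), and it passed in all fits that left out a library. The locus named RGL2, TAPBP and ZBTB22, which holds tapasin, the bridge between class I and the transporter, averaged 194 ± 41.4 FPKM in TNF and 49.9 ± 9.52 FPKM in control, and 206 ± 24.3 FPKM in TNFSG and 67.9 ± 9.91 FPKM in SG. Its rises were 1.93 (limma adjusted p 0.000571) and 1.59 (0.00204), and which of its 3 genes moved is not separated in the table.

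ERAP2, an aminopeptidase that trims peptides in the endoplasmic reticulum, averaged 8.35 ± 1.00 FPKM in TNF and 2.25 ± 0.49 FPKM in control, a rise of 1.53 (limma adjusted p 0.00345). It averaged 9.81 ± 2.02 FPKM in TNFSG and 3.22 ± 0.77 FPKM in SG, a rise of 1.36 (limma adjusted p 0.00682). PSME1, a subunit of the PA28 activator of the proteasome, rose by 0.39 in TNF against control (limma adjusted p 0.0306) and by 0.38 in TNFSG against SG (0.0315), and leaving out a library ended these calls in 6 of 6 and 5 of 6 cases. TAPBPL, the tapasin relative TAPBPR, averaged 6.27 ± 1.12 FPKM in TNF and 1.36 ± 0.79 FPKM in control (limma adjusted p 0.0485), and 8.81 ± 3.69 FPKM in TNFSG and 1.25 ± 0.35 FPKM in SG (0.0156). Its calls ended in 6 of 6 and 4 of 6 such cases. TAPBPL in TNF against control and PSME1 in TNFSG against SG were named after their values were seen. Without the libraries numbered 1, which leaves 2 a group, the count was 2 of 21 in each comparison, TAP1 and the tapasin locus, and the calls over all loci were 258 and 213 of 29079 tested, against 478 and 540 with all libraries.

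With the targeted transfection 0 of the 21 passed in SG against control and 0 in TNFSG against TNF, with 5 and 4 at an unadjusted p under 0.05 (9.86% and 9.11% of all tested loci). PSME1 averaged 64.9 ± 6.09 FPKM in SG and 53.9 ± 2.08 FPKM in control (limma adjusted p 0.264), and 84.6 ± 1.35 FPKM in TNFSG and 70.9 ± 2.40 FPKM in TNF (0.308). The locus that holds TAP2, the other transporter chain, together with HLA-DOB averaged 15.7 ± 1.09 FPKM in TNFSG and 11.5 ± 1.00 FPKM in TNF (limma adjusted p 0.372). PSME2, the partner of PSME1, and PSMB10, an immunoproteasome subunit in a locus shared with CTRL, differed by 0.18 and 0.20 in each of these comparisons, with limma adjusted p values between 0.402 and 0.462.

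Regulators of class I transcription formed a list of 24 symbols, of which 22 were tested and NLRC5 and IRF9 were not analysed here. In TNF against control 6 rose, in TNFSG against SG 7 rose, and 0 fell in either, with list medians of 0.10 and 0.24 (1.18% and 1.37% of all tested loci rose). The NF-kB subunits RELB, NFKB1 and NFKB2, the interferon regulatory factors IRF1 and IRF2, and RFX5, the DNA-binding subunit of the RFX complex, passed in both. CREB1 was the seventh in TNFSG against SG (limma adjusted p 0.0412), and that call ended whichever of the 6 libraries was left out. RFX5, CREB1, IRF1 in TNF against control and IRF2 in TNFSG against SG were named after their values were seen. The counts were 6 and 5 without the libraries numbered 1.

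RELB lay at 52.4, 45.0 and 47.3 FPKM in TNFSG, 49.9, 45.2 and 40.8 FPKM in TNF, 3.40, 3.64 and 1.86 FPKM in SG, and 2.04, 3.23 and 1.77 FPKM in control, and it had the largest rises of the list, 3.81 (limma adjusted p 1.45e-05) and 3.66 (1.85e-05). NFKB1 averaged 53.8 ± 3.29 FPKM in TNF and 12 ± 1.75 FPKM in control, and 50.6 ± 2.44 FPKM in TNFSG and 10.3 ± 1.74 FPKM in SG. IRF1 averaged 22.2 ± 1.13 FPKM in TNF and 6.80 ± 0.72 FPKM in control, and 22.9 ± 2.07 FPKM in TNFSG and 6.75 ± 1.27 FPKM in SG. RFX5 averaged 19.4 ± 1.47 FPKM in TNF and 10.8 ± 1.33 FPKM in control, and 19.9 ± 0.55 FPKM in TNFSG and 11 ± 0.57 FPKM in SG. Their rises were 2.09, 1.58 and 0.79 in TNF against control and 2.2, 1.64 and 0.79 in TNFSG against SG, each passed in every fit that left out a library of the groups compared. On the same scale the values of RELB, NFKB1 and IRF1 exceeded those of all 3 class I loci, and those of RFX5 exceeded B2M.

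For the targeted transfection 1 of the 22 passed in SG against control and 0 in TNFSG against TNF (0.17% and 0.128% of all tested loci). At an unadjusted p under 0.05 there were 2 and 4 (9.86% and 9.11% of all tested loci). That 1 was EZH2, catalytic subunit of the Polycomb complex that methylates histone H3 and is known to silence class I genes in tumour cells. It lay at 83.2, 79.9 and 77.2 FPKM in TNFSG, 97.3, 95.8 and 96.7 FPKM in TNF, 74.9, 76.9 and 74.3 FPKM in SG, and 97.6, 94.8 and 95.7 FPKM in control. EZH2 was lower in all 6 libraries of the targeted transfection than in all 6 of the control transfection, and the share of all loci that part in this way is not given here. In SG against control it fell by 0.35 (SE 0.05, limma adjusted p 0.0378), and in TNFSG against TNF the difference was -0.27 with a limma adjusted p of 0.0934. The first call ended whichever of the 6 libraries was left out (limma adjusted p up to 0.171) and without the libraries numbered 1 (0.158). IRF2 averaged 7.43 ± 0.23 FPKM in SG and 4.96 ± 0.34 FPKM in control (limma adjusted p 0.120), and 15.6 ± 1.53 FPKM in TNFSG and 12.4 ± 0.92 FPKM in TNF (0.355). NFYC and CIITA were at an unadjusted p under 0.05 in TNFSG against TNF, with limma adjusted p values of 0.462 and 0.485.

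**Figure D5:**
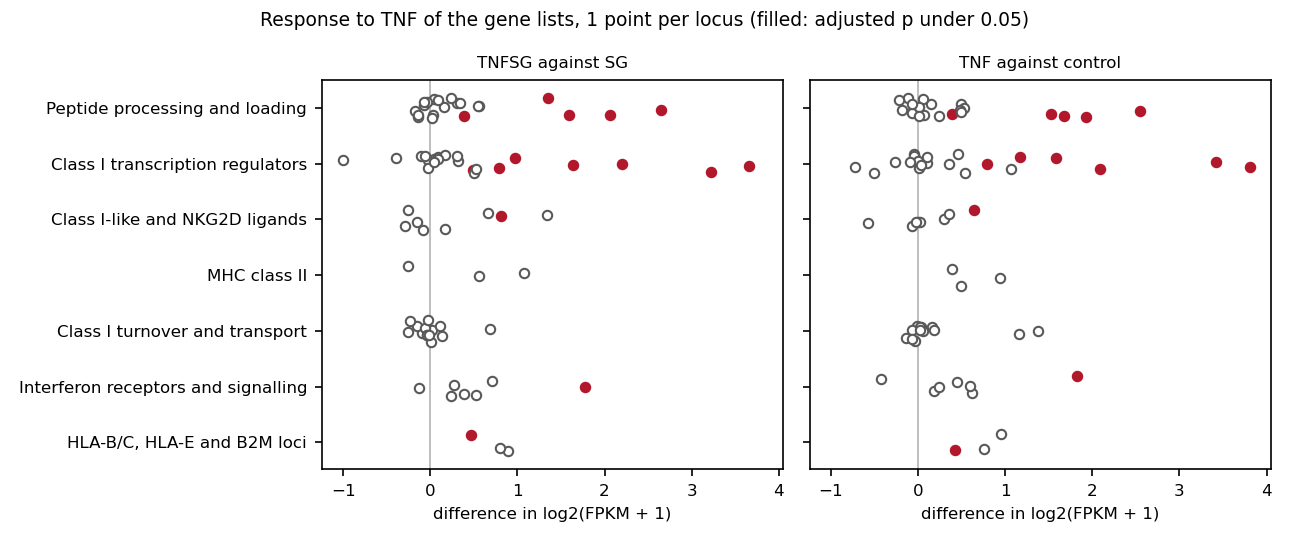
Differences in log2(FPKM + 1) of the tested loci of 6 gene lists and of the HLA-B/HLA-C, HLA-E and B2M loci, in TNFSG against SG and in TNF against control, with 1 point per locus and filled points for a limma adjusted p under 0.05. The filled points of the regulators reach 3.66 and 3.81 (RELB) and those of peptide processing 2.65 and 2.55 (TAP1), while B2M lies at 0.47 and 0.42.

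Among class I-like molecules and ligands of the receptor NKG2D, 8 of 15 listed symbols were tested and 1 rose in each TNF comparison (1.18% and 1.37% of all tested loci). This was MICB, a stress-induced ligand that marks cells for natural killer cells. It averaged 21.2 ± 2.46 FPKM in TNF and 13.1 ± 0.76 FPKM in control, a rise of 0.65 (limma adjusted p 0.0187), and 22.2 ± 1.68 FPKM in TNFSG and 12.3 ± 1.44 FPKM in SG, a rise of 0.81 (0.00486). Leaving out a library ended the first call in 4 of 6 cases (limma adjusted p up to 0.0860), and without the libraries numbered 1 (0.0559). HFE, which controls iron uptake, averaged 4.38 ± 0.81 FPKM in TNFSG, 2.62 ± 0.30 FPKM in TNF and 2.38 ± 0.47 FPKM in SG, with limma adjusted p values of 0.379 in TNFSG against TNF and 0.147 in TNFSG against SG. For the targeted transfection 0 of 8 passed in either comparison, with 2 at an unadjusted p under 0.05 in each (9.86% and 9.11% of all tested loci). MR1, which presents microbial metabolites, averaged 4.08 ± 0.12 FPKM in SG and 2.91 ± 0.36 FPKM in control, and 3.79 ± 0.26 FPKM in TNFSG and 2.72 ± 0.15 FPKM in TNF (limma adjusted p 0.324 and 0.375). PROCR, the endothelial protein C receptor, averaged 89.9 ± 2.38 FPKM in SG and 76.3 ± 4.55 FPKM in control (limma adjusted p 0.388).

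Of interferon receptors and their kinases, 7 of 10 symbols were tested and 1 rose in each TNF comparison (1.18% and 1.37% of all tested loci). IFNGR2, a chain of the interferon gamma receptor, averaged 93.8 ± 3.29 FPKM in TNF and 25.9 ± 2.66 FPKM in control, a rise of 1.82 (limma adjusted p 3.45e-06), and 94.7 ± 2.83 FPKM in TNFSG and 27.1 ± 1.35 FPKM in SG, a rise of 1.77 (3.93e-06). The kinases JAK1, TYK2 and JAK2 were higher by 0.45, 0.59 and 0.62 in TNF against control without passing (limma adjusted p 0.0673, 0.136 and 0.143), and by 0.38, 0.53 and 0.71 in TNFSG against SG (0.117, 0.181 and 0.0866). For the targeted transfection 0 of 7 passed and 0 reached an unadjusted p under 0.05 in either comparison. The TNF counts were 2 and 1 without the libraries numbered 1.

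Genes of class I turnover and transport, 14 tested of 14, held 0 calls in any comparison, and at an unadjusted p under 0.05 there were 1 in TNF against control, 0 in TNFSG against SG, 2 in SG against control and 2 in TNFSG against TNF. Over all tested loci these shares were 11.2%, 11.4%, 9.86% and 9.11%, so the counts of the list were near the background. MARCH4 and MARCH9 are ubiquitin ligases that act on class I. MARCH9 averaged 3.06 ± 0.16 FPKM in SG and 1.88 ± 0.16 FPKM in control (limma adjusted p 0.334). MARCH4 lay at 3.30, 9.0 and 6.49 FPKM in TNFSG, 3.16, 0.707 and 2.07 FPKM in TNF, 3.49, 5.82 and 1.51 FPKM in SG, and 0.953 FPKM in control replicate 3, while it was listed at 0 in the other control libraries. Its limma adjusted p was 0.462 in TNFSG against TNF, 0.266 in SG against control and 0.414 in TNF against control. DERL1, which takes part in the export of misfolded heavy chains, averaged 36.2 ± 2.12 FPKM in TNFSG and 32 ± 1.39 FPKM in TNF (limma adjusted p 0.497).

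Of 12 MHC class II symbols 3 were tested, and 0 passed in any comparison, with 1 at an unadjusted p under 0.05 in each, the joint locus of TAP2 and HLA-DOB. That locus averaged 11.5 ± 1.00 FPKM in TNF and 7.92 ± 1.32 FPKM in control (limma adjusted p 0.146), and 15.7 ± 1.09 FPKM in TNFSG and 10.4 ± 1.45 FPKM in SG (0.0954). In SG against control it differed by 0.36 (limma adjusted p 0.414).

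Another 5 class I loci of the table, HLA-G and the pseudogenes HLA-H, HLA-J, HLA-K and HLA-L, were looked at after values had been seen. Of these 0 passed in any comparison, and the lowest limma adjusted p was 0.508 in TNF against control, 0.133 in TNFSG against SG (HLA-J), 0.598 in SG against control and 0.606 in TNFSG against TNF. HLA-G, a non-classical chain of the placenta, lay at 459, 258 and 175 FPKM in TNFSG, 241, 202 and 148 FPKM in TNF, 115, 148 and 216 FPKM in SG, and 123, 98.5 and 0 FPKM in control. A listed 0 beside values above 98 FPKM in the same group can be a failed estimate, so the HLA-G values are given without a fold change.

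The loci with the most similar profiles were taken by the root mean square difference of centred log2(FPKM + 1) values over the 12 libraries, among 11920 loci with 1 symbol and at least 5 FPKM on average. For HLA-B/HLA-C they were STARD4, a sterol transfer protein (0.119), FOXA3, a transcription factor (0.127), and CD276, the immune checkpoint molecule B7-H3 (0.139), against a median of 0.592 over all of these loci. For HLA-E they were LRRC4B (0.176), NAV1 (0.183) and IER5 (0.187), against a median of 0.674. For B2M they were SPPL2A, an intramembrane protease (0.0588), CKAP2L, a spindle protein (0.0647), and ST3GAL2, a sialyltransferase (0.0736), against a median of 0.351. Between members the difference was 0.316 for HLA-B/HLA-C and HLA-E, 0.385 for HLA-B/HLA-C and B2M, and 0.457 for HLA-E and B2M. These pairs were fixed, whereas the loci above were the closest of 11920, so the 2 sets of values are not comparable. The measure also depends on the size of a profile's own changes, which was 0.519 for HLA-B/HLA-C, 0.596 for HLA-E and 0.234 for B2M. CD276 averaged 22.6 FPKM in TNFSG, 19.0 in TNF, 13.0 in SG and 9.83 in control, the order of HLA-B/HLA-C. These measures describe 12 libraries that share groups and library numbers.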

How the data were processed

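The deposited table holds FPKM values, which the authors made with Bowtie2 2.2.9, TopHat2 2.0.14 and Cufflinks on hg38, per the submitters' processing notes. No source used here gives the Cufflinks version or annotation release. Trizol-extracted RNA was read in single reads of 50 bases, per the labels' protocols. Reads of overlapping genes and near-identical copies are not separated.

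Values were taken as log2(FPKM + 1). The 32866 loci that reached 1 FPKM in 3 or more of 12 libraries were fitted with limma 3.58.1 in R 4.3.3, with 1 mean per group and a variance trend, two-sided, adjusted over all tested loci by Benjamini-Hochberg at 0.05. Fold changes on this scale understate low loci. Sums and ratios had exact permutation tests (scipy 1.17.1). The fit was tested on simulated data.

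Members, lists and tests were chosen with earlier results of these data known. Up to 4 tested genes of lowest p per list and comparison were taken, and those at an unadjusted p of 0.05 or more are counted but not named. The 3 most similar loci of each member were named too. Alternatives were other pseudocounts, filters, scalings and fits, and libraries left out. The depth is unknown, so no interval for counting error is given. P-values measure the spread between the 3 labelled replicates. Python 3.11.15, numpy 2.4.6, pandas 2.3.3 and matplotlib 3.10.9 were used. Some genes are not reported here.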

Additional observations from a re-analysis of the deposited data

How the results depend on the processing

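The loci called were 1 of 3 in TNF against control and 1 of 3 in TNFSG against SG. With quantile normalization, with limma without the trend and with a fit on the compared groups alone, the count was 0 in both comparisons, and the B2M adjusted p ran from 0.0520 to 0.173. A filter at 5 FPKM gave 2 in TNFSG against SG. Without 1 library the counts ran from 0 to 1 in TNF against control and from 0 to 2 in TNFSG against SG. Without the 4 libraries numbered 1 the count was 0 in TNFSG against SG and 1 in TNF against control, there HLA-E in place of B2M. The cause was not tested. Each symbol had 1 locus, so summing loci per symbol changed nothing and was not run.

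With the replicate block (the library number as a term) 2 of 3 loci passed in each TNF comparison, B2M and HLA-B/HLA-C, and HLA-B/HLA-C had adjusted p values of 0.00883 and 0.00425. The block brought the loci called among all to 831 from 478 in TNF against control and to 843 from 540 in TNFSG against SG. The library titles give libraries of the same number the same letter, A, B or C, without saying what the letter stands for. The labels give no shared culture or day for a number. Deviations of same-numbered libraries correlated at 0.00651 to 0.138 over 18 pairs, 1 of them above 0.1. In 28 of 36 checks a library correlated best with its own number. These values do not settle whether the numbers were paired, and the fit reported left the number out.

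Signs turned only in differences that were not called. For HLA-E in TNFSG against TNF the difference was -0.0045 with median-ratio scaling, -0.0214 with quantile normalization, and -0.13 to 0.39 without 1 library. It ran from -0.0591 to 0.61 in SG against control and from -0.54 to 0.18 in the interaction without 1 library. For B2M in TNFSG against TNF it was -0.0699 to -0.0090 without 1 library and 0.0096 without the libraries numbered 1. The sums and their ratios kept their sign in every alternative run.

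Counts over all loci moved by more than 1.5 times as follows. With only the groups compared they were 201 (478 in the fit reported) in TNF against control, 323 (540) in TNFSG against SG, 12 (56) in SG against control and 2 (42) in TNFSG against TNF. With a filter at 5 FPKM they were 115 and 97 in the comparisons of the targeted transfection, and without the trend 16 and 18. With a pseudocount of 0.1 the interaction had 12 (3). Without the libraries numbered 1 they were 258, 213, 12, 3 and 5 in the order TNF against control, TNFSG against SG, SG against control, TNFSG against TNF and the interaction. Median-ratio scaling gave 78 in TNFSG against TNF, 19 higher and 59 lower, where the fit reported had 19 and 23. In SG against control it gave 17 higher and 66 lower, where the fit reported had 18 and 38. Without 1 library the counts ran from 294 to 435, 299 to 598, 10 to 49 and 3 to 25 in the 4 comparisons in that order, and from 1 to 6 in the interaction. Total depth is unknown, and 3 libraries a group limit what can pass.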
